A study of Mus musculus with 4 samples.

Results

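The lysosome and autophagy genes described here are 80 of the 27179 rows of the deposited gene table. They were chosen by symbol. The rule took symbols that start with Atp6v0 or Atp6v1, mainly V-ATPase subunits, and the cathepsins named Cts plus 1 letter. It also took Lamp1 to Lamp3, every gene whose symbol is Atg followed by a number, and 17 named genes. The named genes are Cd63, Cd68, Tfeb, Tfe3, Mcoln1, Sqstm1, Map1lc3a, Map1lc3b, Gabarap, Gabarapl1, Gabarapl2, Becn1, Ulk1, Ulk2, Rb1cc1, Wipi1 and Wipi2. Of the 80 members, 62 had a mean of at least 1 CPM (counts scaled to library size and normalized by TMM) over the 4 libraries. These 62 were tested, among 11179 tested genes in all. The other 18 members were below that level and are described by their counts.

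The libraries were made from group 2 innate lymphoid cells (ILC2s), lymphocytes that lack antigen receptors and release type 2 cytokines, which were sorted as CD45.2+Lin-CD127+KLRG1+ cells from the large intestine of WT C57BL/6 mice. After 5 days in culture with the cytokines IL-33, IL-25, IL-7, and IL-2, the cells received vehicle (2 libraries) or 100 μM deoxycholic acid (DCA, 2 libraries), a secondary bile acid made by gut bacteria. The library titles call the control Ctrl, and the RNA-Seq methods of the study speak only of cells with or without DCA. Vehicle is the name used here for that control. The methods of the study give 24 hours of treatment and the deposited design text gives 16 hours. For the age of the mice the study's methods give both 6 to 8 weeks and 6 to 14 weeks, and on sex one passage names both sexes while another limits C57BL/6J animals to males. The labels do not give the age or sex behind each library. Neither group carries a genetic change and both received the same cytokines, so the only labelled difference is DCA. No label says whether replicates came from separate animals or cultures, so the spread between these libraries may be technical. The p-values rest on that spread, which edgeR moderates for each gene with the spread of other genes at similar levels.

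Lysosomes are acidic organelles that break down material delivered by endocytosis and by autophagy. The V-ATPase pumps protons into the lumen, cathepsins are the proteases that work there, and LAMP proteins line the membrane. In autophagy, the ULK1 complex starts a membrane, the Beclin 1 lipid kinase complex marks it with PI3P, ATG2 and ATG9 supply lipid, and a conjugation system built from ATG3, ATG5, ATG7, ATG12, and ATG16L1 attaches ATG8 proteins (the LC3 and GABARAP families), which bind cargo receptors such as p62. The transcription factors TFEB and TFE3 act on many of these genes through a short promoter motif known as the CLEAR element, and ATF4, a factor downstream of the kinase PERK, is known to act on a number of autophagy genes.

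The libraries held between 26564059 and 35838342 counts, except for DCA replicate 2, which held 244165712. The limit set by a count of 0, taken as 3 counts, was between 0.0819 and 0.114 CPM in the first 3 libraries and 0.0125 CPM in DCA replicate 2 (counting error only, since amplified reads are not independent molecules). The 2 vehicle libraries were the least alike pair, with a Pearson correlation of log2 levels across genes of 0.873, against 0.932 for the 2 DCA libraries and 0.884 to 0.915 between treatments (genes are not independent replicates). All 11 listed ILC2 markers were detected, and their summed level was 16486 and 15146 CPM in the vehicle libraries versus 17454 and 19953 CPM in the DCA libraries. Il5 alone made up 8846 and 7707 CPM of the vehicle sums and 9952 and 12358 CPM of the DCA sums, and the markers did not move together. Both DCA libraries lay above both vehicle libraries for 3 of them (Il5, Il2ra, and Il7r) and below both for 3 (Klrg1, Il1rl1, and Areg). The shares over all tested genes were 18.9% and 14.5%. In edgeR's test 3 of the 11 had an unadjusted p under 0.05, beside 4.28% of all genes. Klrg1, a marker used in the sort, had a log2 fold change of -0.73 (SE 0.22, edgeR unadjusted p = 0.0156, adjusted p = 0.998). The others were Il1rl1 at -0.59 (SE 0.2, edgeR unadjusted p = 0.0235) and Il2ra at 0.48 (SE 0.19, edgeR unadjusted p = 0.0448), each with an adjusted p of 0.998. The part of these shifts in the results below was not tested. Of 11 macrophage and monocyte markers, 0 reached the level for testing. Their sum was 2.56, 0, 0.0618, and 0.5 CPM in vehicle replicates 1 and 2 and DCA replicates 1 and 2, and 6 of them, Csf1r, Cd14, Fcgr1, C1qa, C1qb, and C1qc, were at 0 in every library. The summed markers of dendritic, B, T, and epithelial cells were between 7.73 and 55.0 CPM in every library. Those of mast cells and basophils summed to 362 and 283 CPM in the vehicle libraries versus 302 and 159 CPM in the DCA libraries, nearly all of it Kit.

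Whether DCA shifted the expression of the lysosome and autophagy machinery in ILC2s was asked with edgeR's quasi-likelihood test across all tested genes. With Benjamini-Hochberg adjustment, 0 of the 62 members passed an adjusted p of 0.05, beside 0 of 11179 genes in the whole table (0.0%), and the smallest adjusted p of a member was 0.998. DESeq2 and limma also called 0 members. At an unadjusted p under 0.05 there were 2 members, Cd68 (lower with DCA) and Atg16l2 (higher with DCA). That is 3.23% of the members, beside 4.28% of all genes. The median log2 fold change of DCA over vehicle was 0.061 over the members and 0.013 over all genes tested, with 37 members fitted higher and 25 lower. Both DCA libraries lay above both vehicle libraries for 14 members (22.6%, beside 18.9% of all genes) and below both for 6 members (9.68%, beside 14.5% of all genes). A two-sided exact permutation test of 2 libraries against 2 cannot go below p = 0.333, so separation of the libraries alone cannot reach 0.05. In bulk RNA, fewer cells of a type and less RNA per cell cannot be told apart.

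**Figure D1:**
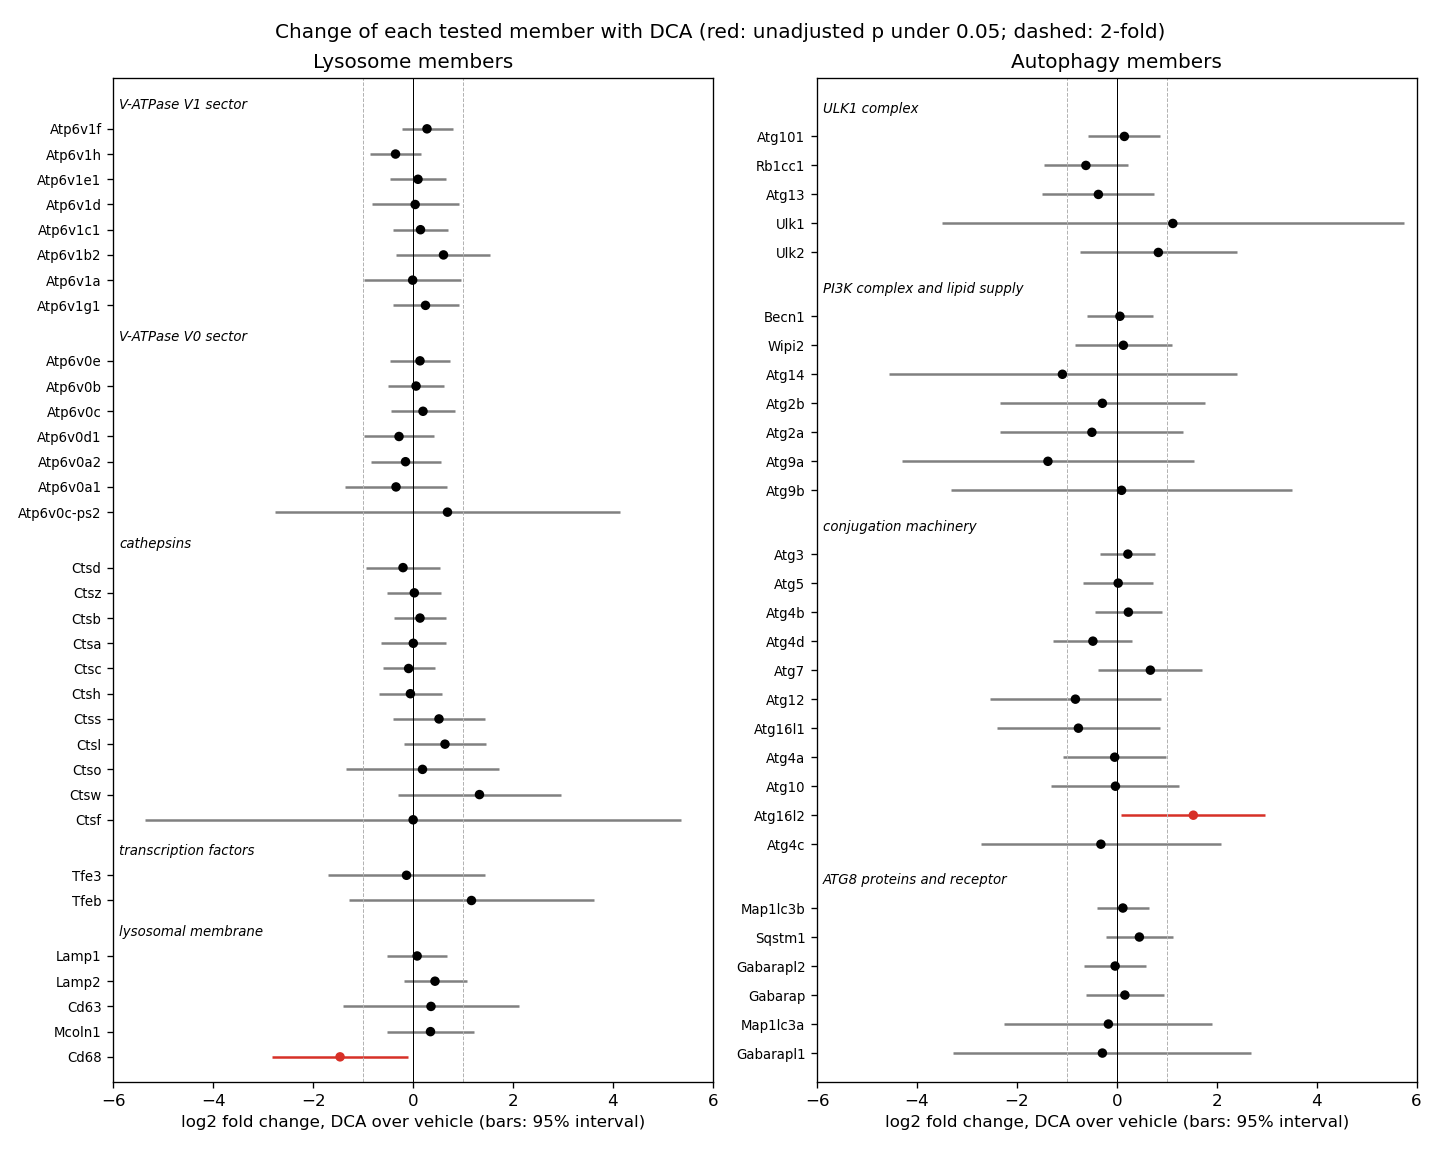
Log2 fold change of DCA over vehicle for the 62 tested members, grouped by role, with the 95% interval of edgeR's quasi-likelihood fit as a bar. The 2 members with an unadjusted p under 0.05, Cd68 at -1.46 and Atg16l2 at 1.53, are in red, and dashed lines mark a 2-fold difference.

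The intervals show how large a difference these libraries leave room for. For 27 of the 62 members the whole 95% interval of the log2 fold change lay within a 2-fold difference in either direction, beside 20.5% of all genes. Of the 20 members with a mean of at least 100 CPM, 18 had such an interval (90.0%, beside 73.8% of genes at that level), and their fitted log2 fold changes ran from -0.35 to 0.45. Of the 35 members between 10 and 100 CPM, 9 did, and of the 7 members between 1 and 10 CPM, 0 did. For the abundant members a change of more than 2-fold therefore lies outside the interval in most cases, while for the low ones, which include Tfeb, Gabarapl1, and Atg9b, the intervals reached past a 2-fold difference and such a change was not detectable at this depth and spread.

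The members together took 0.962% and 0.811% of the counts in the vehicle libraries and 0.979% and 0.82% in the DCA libraries. Replicate 1 of each treatment was the higher one, and the groups overlapped. In the sums by role, the libraries overlapped for every group but the ATG8 proteins with the receptor p62. That sum was 892 and 798 CPM with vehicle and at least 955 CPM in both DCA libraries. Among single genes, 18.9% of all tested genes were higher in both DCA libraries.

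**Figure D2:**
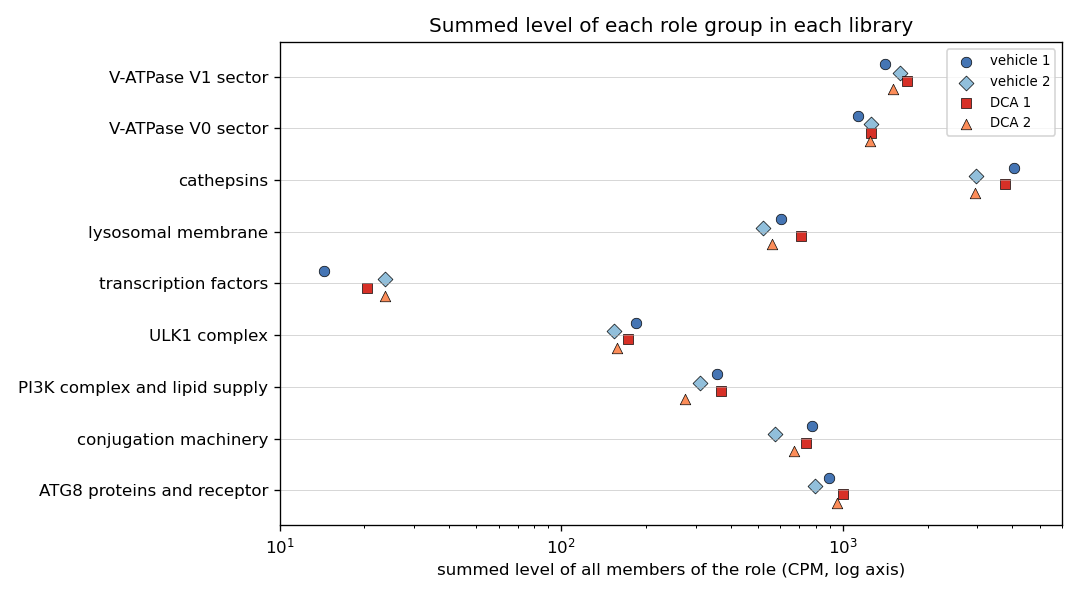
Summed TMM-normalized CPM of all members of each role, one symbol per library, on a log axis. The cathepsins were at 4039 and 2977 CPM in the vehicle libraries versus 3768 and 2952 CPM in the DCA libraries, and the ATG8 proteins with p62 are the only role in which both DCA sums lie above both vehicle sums.

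The V-ATPase has a cytosolic sector, V1, which hydrolyses ATP, and a membrane sector, V0, which passes protons. Of 24 genes taken in by symbol, 15 were tested, and 0 had an unadjusted p under 0.05. The 24 include the processed copy Atp6v0c-ps2 and Atp6v1fnb, a neighbour of Atp6v1f. Their median log2 fold change was 0.1, and the intervals of 12 of the 15 stayed within a 2-fold difference. The sum over both sectors was 2540 and 2849 CPM in the vehicle libraries versus 2946 and 2753 CPM in the DCA libraries, so the groups overlapped. Atp6v1f, a small subunit of the central stalk, was at 293 and 346 CPM in the vehicle libraries versus 382 and 397 CPM in the DCA libraries. The DCA libraries were both higher, with a log2 fold change of 0.28 (SE 0.21, edgeR unadjusted p = 0.226). Atp6v1h, the regulatory H subunit, was at 311 and 337 CPM in the vehicle libraries versus 258 and 249 CPM in the DCA libraries. The DCA libraries were both lower, with a log2 fold change of -0.35 (SE 0.21, edgeR unadjusted p = 0.136).

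The A and B subunits form the ATP-binding head, and the treatments overlapped for both. Atp6v1a was at 92.4 and 76.4 CPM in the vehicle libraries versus 113 and 54.8 CPM in the DCA libraries, a log2 fold change of -0.0072 (SE 0.4). Atp6v1b2, the B subunit, was at 52.3 and 89.6 CPM in the vehicle libraries versus 134 and 82.3 CPM in the DCA libraries, a log2 fold change of 0.61 (SE 0.39, edgeR unadjusted p = 0.169), and DCA replicate 2 lay between the vehicle libraries. With 1 library left out the value ran from 0.21 (without DCA replicate 1) to 1.05 (without vehicle replicate 2, the only one of these fits with an unadjusted p under 0.05). In the membrane sector, Atp6v0c, which encodes the proton-carrying ring subunit c, was at 190.1 and 238 CPM in the vehicle libraries versus 288 and 204 CPM in the DCA libraries, a log2 fold change of 0.2 (SE 0.27) with overlapping groups. Its processed copy Atp6v0c-ps2 shares 99.785% of 465 aligned bases with it. Reads cannot be assigned with certainty between these copies, and the 2.46, 2.36, 3.93, and 3.84 CPM counted on the copy are uncertain for that reason. Atp6v0e, subunit e, was at 422 and 583 CPM in the vehicle libraries versus 497 and 611 CPM in the DCA libraries. Atp6v0d1, which encodes the d subunit that joins the sectors, was at 127 and 87.4 CPM in the vehicle libraries versus 83.6 and 92.9 CPM in the DCA libraries, a log2 fold change of -0.28 (SE 0.29, edgeR unadjusted p = 0.378). The DCA values of both genes overlapped those of vehicle.

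The tissue-restricted V-ATPase genes Atp6v0a4, Atp6v0d2, and Atp6v1e2 were at 0 counts in every library, and Atp6v1b1 had 2 counts in all, in DCA replicate 2. Atp6v1fnb, which the rule takes in by its symbol alone, was also at 0 counts in every library. Atp6v0d2, which is known as the d isoform of osteoclasts and macrophages, was thus limited to 0.0125 CPM in the deepest library. Subunit a was split between Atp6v0a1, Atp6v0a2, and Tcirg1, which encodes the a3 isoform and falls outside the naming rule. Tcirg1 was at 32.8 and 27.1 CPM in the vehicle libraries versus 22.3 and 23.4 CPM in the DCA libraries, both lower, with a log2 fold change of -0.39 (SE 0.42, edgeR unadjusted p = 0.388). Per kb of transcript, Atp6v0a1 gave 27.4% to 40.2% of the summed subunit a level, Atp6v0a2 gave 32.3% to 40.4%, and Tcirg1 gave 26.7% to 35.7%, and the treatments overlapped in all 3 shares. Subunit G came almost entirely from Atp6v1g1, but Atp6v1g2, an isoform known from neurons, was counted 2 and 0 times with vehicle but 50 and 436 times with DCA. These counts correspond to 0.0546 and 0 CPM in the vehicle libraries versus 1.55 and 1.82 CPM in the DCA libraries. Both DCA libraries were higher, and pooled over replicates the ratio was 56.1 (95% interval 15.5 to 465, from an exact binomial interval of the share of counts, for counting error only). The gene fell below the mean of 1 CPM needed for testing. Without that filter its edgeR unadjusted p was 0.139 and its adjusted p 0.954. It was singled out after its values were seen, and 7.7% of its exon bases overlap Nfkbil1 on the other strand.

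Of the 18 cathepsins, 11 were tested, 0 had an unadjusted p under 0.05, and the median log2 fold change was 0.026. Ctsd, which encodes the aspartic protease cathepsin D (chr7:142375910-142387827, minus strand), had the highest level per length of all members, 848 CPM per kb of transcript as a mean over the libraries. It was at 2347 and 1327 CPM in the vehicle libraries versus 1791 and 1400.0 CPM in the DCA libraries. The DCA libraries lay between the vehicle libraries, and the log2 fold change was -0.2 (SE 0.31, edgeR unadjusted p = 0.534). Exons of an annotated transcript, Gm49369, cover 31.5% of its exon bases on the same strand. Ctsb, a cysteine protease, was at 465 and 430 CPM in the vehicle libraries versus 548 and 439 CPM in the DCA libraries, a log2 fold change of 0.14 (SE 0.22) with an interval from -0.39 to 0.67.

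The cathepsins with the largest fitted differences were both higher in the 2 DCA libraries. Ctsl, which encodes the endopeptidase cathepsin L, was at 35.6 and 35.9 CPM in the vehicle libraries versus 62.7 and 48.3 CPM in the DCA libraries. The vehicle libraries were close together, and the log2 fold change was 0.64 (SE 0.34, edgeR unadjusted p = 0.111). Other annotated genes, mainly the antisense Gm47123, cover 34.6% of its exon bases, and without a stated strand setting their reads cannot be told apart. Ctsw, a cathepsin known from cytotoxic lymphocytes, was at 5.7 and 9.57 CPM in the vehicle libraries versus 23.9 and 14.5 CPM in the DCA libraries. Its log2 fold change was 1.33 (SE 0.67, edgeR unadjusted p = 0.0942). With 1 library left out it ran from 0.92 (unadjusted p = 0.457, without DCA replicate 1) to 1.75 (unadjusted p = 0.0457, without vehicle replicate 2), and the other 2 such fits had an unadjusted p of 0.151 and 0.181. Ctsg, a granule protease of neutrophils, had 68 counts in vehicle replicate 1 and 0 in the other libraries. Ctsk, the collagenase of osteoclasts, had 60 counts in DCA replicate 2 alone, and Ctsj, Ctsm, Ctsq, and Ctsr, a group known from the rodent placenta, were at 0 throughout. Of the remaining untested members, Ctse and Atp6v1g3 had at most 4 counts in any library, Atp6v0e2 had 138 in DCA replicate 2 alone, Atp6v1c2 had 33 in vehicle replicate 1 and 30 in DCA replicate 2, and Lamp3, the LAMP of maturing dendritic cells, had 12, 0, 4, and 147 in vehicle replicates 1 and 2 and DCA replicates 1 and 2.

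Among the lysosomal membrane members, Cd68 was the one that stood lower with DCA. It encodes a heavily glycosylated LAMP-family protein best known from macrophages (chr11:69664213-69666170, minus strand). It was at 24.2 and 23.9 CPM in the vehicle libraries versus 7.3 and 10.2 CPM in the DCA libraries, from 888 and 628 counts and from 236 and 2442 counts. Both vehicle libraries were above both DCA libraries, and the vehicle pair differed by less than the DCA pair. The mean was 2.75-fold lower with DCA, a log2 fold change of -1.46 (SE 0.56, 95% interval -2.82 to -0.1, edgeR unadjusted p = 0.0389, adjusted p = 0.998). When 1 library was left out the log2 fold change ran from -1.72 to -1.24. The edgeR unadjusted p was then 0.049 without vehicle replicate 1, 0.0531 without vehicle replicate 2, 0.188 without DCA replicate 1, and 0.105 without the other DCA library. The macrophage marker Aif1 was at 2.18 and 0 CPM in the vehicle libraries versus 0.0618 and 0.425 CPM in the DCA libraries. Csf1r, Cd14, Fcgr1, and the 3 C1q genes were at 0 in every library. The part of other cells in the Cd68 difference was not tested. No exon of Cd68 overlaps another annotated gene.

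The other tested membrane members were fitted higher. Lamp1, the most abundant LAMP, was at 321 and 326 CPM in the vehicle libraries versus 403 and 282 CPM in the DCA libraries, a log2 fold change of 0.083 (SE 0.25). Its groups overlapped, with DCA replicate 1 highest and DCA replicate 2 lowest. Lamp2, its close relative, which also serves in chaperone-mediated autophagy, was at 138 and 105 CPM in the vehicle libraries versus 179 and 152 CPM in the DCA libraries. The treatments did not overlap, and the log2 fold change was 0.44 (SE 0.26, edgeR unadjusted p = 0.139). Mcoln1, the lysosomal calcium channel, was at 33.7 and 49.4 CPM in the vehicle libraries versus 57.0 and 48.8 CPM in the DCA libraries, and DCA replicate 2 was within the vehicle range. Cd63, a tetraspanin of lysosomes and secretory granules, was at 86.3 and 15.4 CPM in the vehicle libraries versus 62.3 and 68.2 CPM in the DCA libraries. The DCA libraries lay between the vehicle libraries, and the log2 fold change of 0.36 had an SE of 0.73. Its direction depended on the vehicle library kept. The Cd63 value was 2.06 (edgeR unadjusted p = 0.00105) without vehicle replicate 1 and -0.4 (unadjusted p = 0.26) without vehicle replicate 2.

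Tfeb and Tfe3 were both low. Tfeb was at 3.9 and 3.2 CPM in the vehicle libraries versus 9.4 and 6.57 CPM in the DCA libraries, with both DCA libraries higher. Its log2 fold change of 1.17 had an SE of 1.02, an interval from -1.29 to 3.63, and an edgeR unadjusted p of 0.292. The difference did not pass the test, although the replicates were 1.22-fold apart with vehicle and 1.43-fold apart with DCA. That SE also draws on the spread of other genes at similar levels. Tfe3 was at 10.5 and 20.4 CPM in the vehicle libraries versus 11.1 and 17.0 CPM in the DCA libraries, a log2 fold change of -0.13 (SE 0.65) with overlapping groups. These are transcript levels, and both factors are known to be governed mainly by where the protein sits in the cell.

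The promoters of 64 of the 80 members are in the RefSeq table used here (GRCm38.p6, 250 bases before to 50 bases after a start). The 8 letters TCACGTGA, the centre of the CLEAR element and the same on both strands, occurred in 7 of these 64 genes (10.9%), beside 1.12% of all 27025 genes with a promoter in the table and 2.42% of the 8801 tested genes with one. The shorter E-box CACGTG, which lies inside it and is also the same on both strands, occurred in 14 of the 64 (21.9%), beside 8.09% of all genes and 12.3% of tested genes. The CLEAR element is already known from many of these genes, so the higher shares follow from the choice of genes and are not a result of these libraries. The letters TGATGCAA, one form of the element bound by ATF4 with a C/EBP partner, searched on both strands, occurred in 0 of the 64 members and in 1.03% of all genes, which says only that these letters are not in these windows. The 7 windows are shown because these members carry the sequence that TFEB and TFE3 are known to bind, with the 8 letters in capitals and 10 bases on each side, read along the gene's strand.
Atg3: gagagtcgagTCACGTGAggccttaggt
Atp6v0d1: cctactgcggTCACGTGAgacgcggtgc
Atp6v0e: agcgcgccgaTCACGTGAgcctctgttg
Atp6v1a: tttttttaaaTCACGTGAtaggcttaac
Ctsa: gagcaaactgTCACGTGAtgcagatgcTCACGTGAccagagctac
Ctsd: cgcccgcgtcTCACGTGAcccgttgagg
Mcoln1: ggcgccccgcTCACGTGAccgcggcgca

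These windows lie at chr16:45158747-45158774 on the plus strand for Atg3, chr8:105566051-105566078 on the minus strand for Atp6v0d1, chr17:26676388-26676415 on the plus strand for Atp6v0e, and chr16:44139374-44139401 on the minus strand for Atp6v1a. Those of Ctsa, Ctsd, and Mcoln1 lie at chr2:164833750-164833794 on the plus strand, chr7:142387909-142387936 on the minus strand, and chr8:3500463-3500490 on the plus strand. The first motif base was 132 bases before an annotated start in Atp6v1a, 99 bases before in Ctsd, 72 in Atg3, 46 in Mcoln1, and 4 in Atp6v0d1. In Atp6v0e it was 2 bases after the start, and Ctsa, which encodes the protective protein of lysosomal galactosidase, had 2 sites on either side of a start, the first 13 bases before it and the second 4 bases after it. With DCA, 4 of the 7 genes were fitted higher and 3 lower. Their log2 fold changes were 0.35 for Mcoln1, 0.22 for Atg3, 0.14 for Atp6v0e, 0.0057 for Ctsa, -0.0072 for Atp6v1a, -0.2 for Ctsd, and -0.28 for Atp6v0d1, and each was smaller than its standard error.

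**Figure D3:**
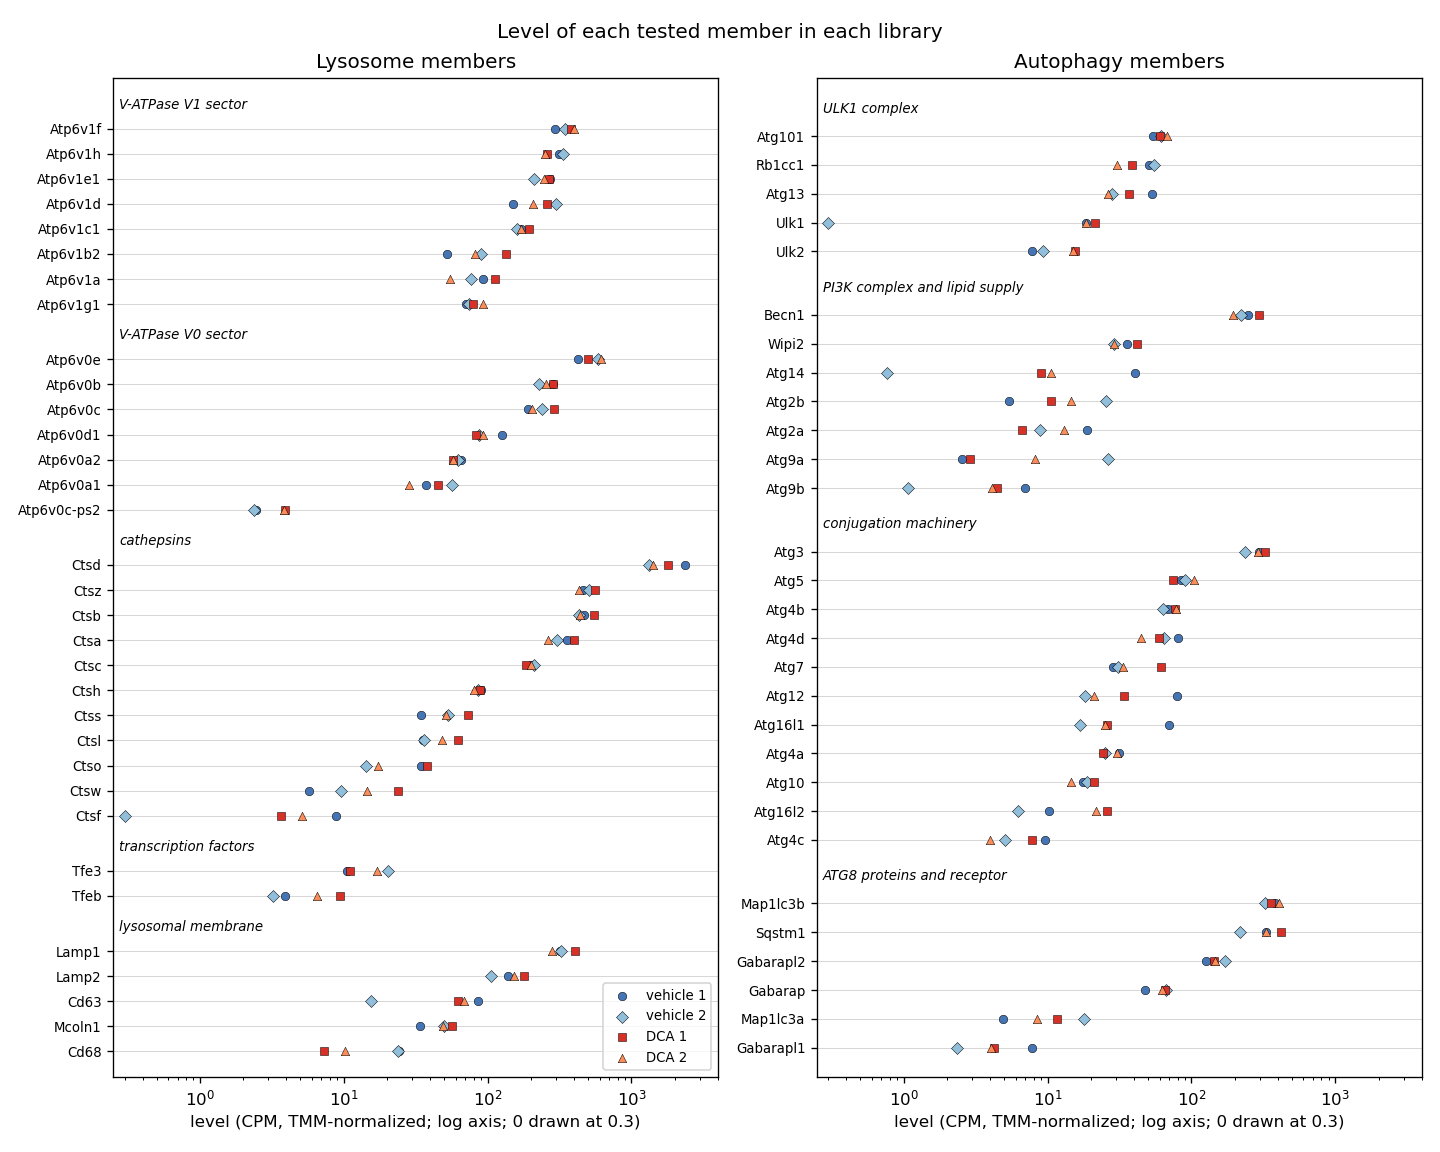
TMM-normalized CPM of each tested member in each library on a log axis, lysosome members on the left and autophagy members on the right, with counts of 0 drawn at 0.3. Symbols in a row are to be compared across libraries and not between genes, since CPM is not divided by length. For most members the 4 symbols lie close together, and Ulk1, Atg14, Ctsf, and Cd63 have vehicle replicate 2 far to the left.

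Of the 30 autophagy members, 29 were tested, with 14 fitted higher, 15 lower, and a median log2 fold change of -0.029. In the initiating ULK1 complex, Rb1cc1, which encodes the scaffold FIP200, was at 50.6 and 55.1 CPM in the vehicle libraries versus 38.4 and 30.6 CPM in the DCA libraries. Both DCA libraries were lower, with a log2 fold change of -0.62 (SE 0.35, edgeR unadjusted p = 0.123). Atg101, another scaffold of the complex, was at 54.4 and 61.6 CPM in the vehicle libraries versus 60.7 and 67.7 CPM in the DCA libraries, and its groups overlapped. The kinase gene Ulk1 was at 18.4 CPM in vehicle replicate 1 and had 0 counts in vehicle replicate 2, beside 21.4 and 18.6 CPM with DCA. Vehicle replicate 1 and DCA replicate 2 were nearly equal, so the fitted log2 fold change of 1.12 (SE 1.91) rested on the single library at 0. It was 0.12 without that library. Ulk2, a second kinase of the family, was at 7.78 and 9.34 CPM in the vehicle libraries versus 15.6 and 14.9 CPM in the DCA libraries. The treatments did not overlap, and the log2 fold change was 0.83 (SE 0.65, edgeR unadjusted p = 0.244).

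Becn1, the core of the PI3P-producing complex, was at 248 and 220 CPM in the vehicle libraries versus 294 and 194 CPM in the DCA libraries, a log2 fold change of 0.061 (SE 0.27), with the DCA libraries on either side of the vehicle ones. Exons of Cntd1 overlap 29.6% of its exon bases. The partners and lipid suppliers varied widely within vehicle. Atg14, which directs Beclin 1 to autophagy, was at 40.6 and 0.762 CPM in the vehicle libraries versus 8.97 and 10.5 CPM in the DCA libraries. Atg9a, a lipid scramblase, was at 2.56 and 26.1 CPM in the vehicle libraries versus 2.88 and 8.13 CPM in the DCA libraries, a log2 fold change of -1.38 (SE 1.21, edgeR unadjusted p = 0.296), and 42.6% of its exon bases overlap other annotated genes, mainly Gm29253 on the same strand. The Atg9a value was -2.26 (edgeR unadjusted p = 0.0185) without vehicle replicate 1 and turned to 1.1 (unadjusted p = 0.453) without vehicle replicate 2. In all 7 tested members of this role the DCA and vehicle libraries overlapped. Wipi1, a PI3P-binding protein, was not tested, with 0 and 8 counts in the vehicle libraries and 0 and 365 in the DCA libraries, and its paralogue Wipi2 gave at least 91.6% of their summed level per kb in each library.

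The conjugation machinery held the other member with an unadjusted p under 0.05. Atg16l2 (chr7:101286325-101302267, minus strand) encodes a paralogue of ATG16L1, the protein that brings the ATG12-ATG5 conjugate to the membrane. It was at 10.3 and 6.21 CPM in the vehicle libraries versus 25.9 and 21.8 CPM in the DCA libraries, from 378 and 163 counts and from 838 and 5238 counts. The 2 treatments did not overlap. The mean was 2.89-fold higher with DCA, a log2 fold change of 1.53 (SE 0.6, 95% interval 0.088 to 2.97, edgeR unadjusted p = 0.0407, adjusted p = 0.998), and the value ran from 1.21 to 1.92 when 1 library was left out. The edgeR unadjusted p was 0.0152 without vehicle replicate 1, 0.0781 without vehicle replicate 2, 0.204 without DCA replicate 1, and 0.137 without DCA replicate 2. No exon of it overlaps another annotated gene.

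Atg16l1, the paralogue, was at 69.9 and 16.8 CPM in the vehicle libraries versus 25.9 and 25.1 CPM in the DCA libraries, a log2 fold change of -0.77 (SE 0.67, edgeR unadjusted p = 0.294), with both DCA libraries between the vehicle ones. The value was -1.45 (unadjusted p = 0.00562 in edgeR's test) without vehicle replicate 2 and 0.58 (unadjusted p = 0.301) without vehicle replicate 1, so its direction rested on which vehicle library was kept. Per kb of transcript, Atg16l2 made up 9.68% and 21.2% of the summed ATG16 level with vehicle and 42.0% and 38.7% with DCA. With lengths from the union of all exons, a choice made after seeing the data, the shares were 6.77% and 15.4% with vehicle and 33.0% and 30.0% with DCA. Under both lengths the DCA shares were above the vehicle shares and Atg16l1 remained the larger part in every library. Vehicle replicate 1, with the lowest Atg16l2 share, was also the library with the highest Atg16l1 level.

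**Figure D4:**
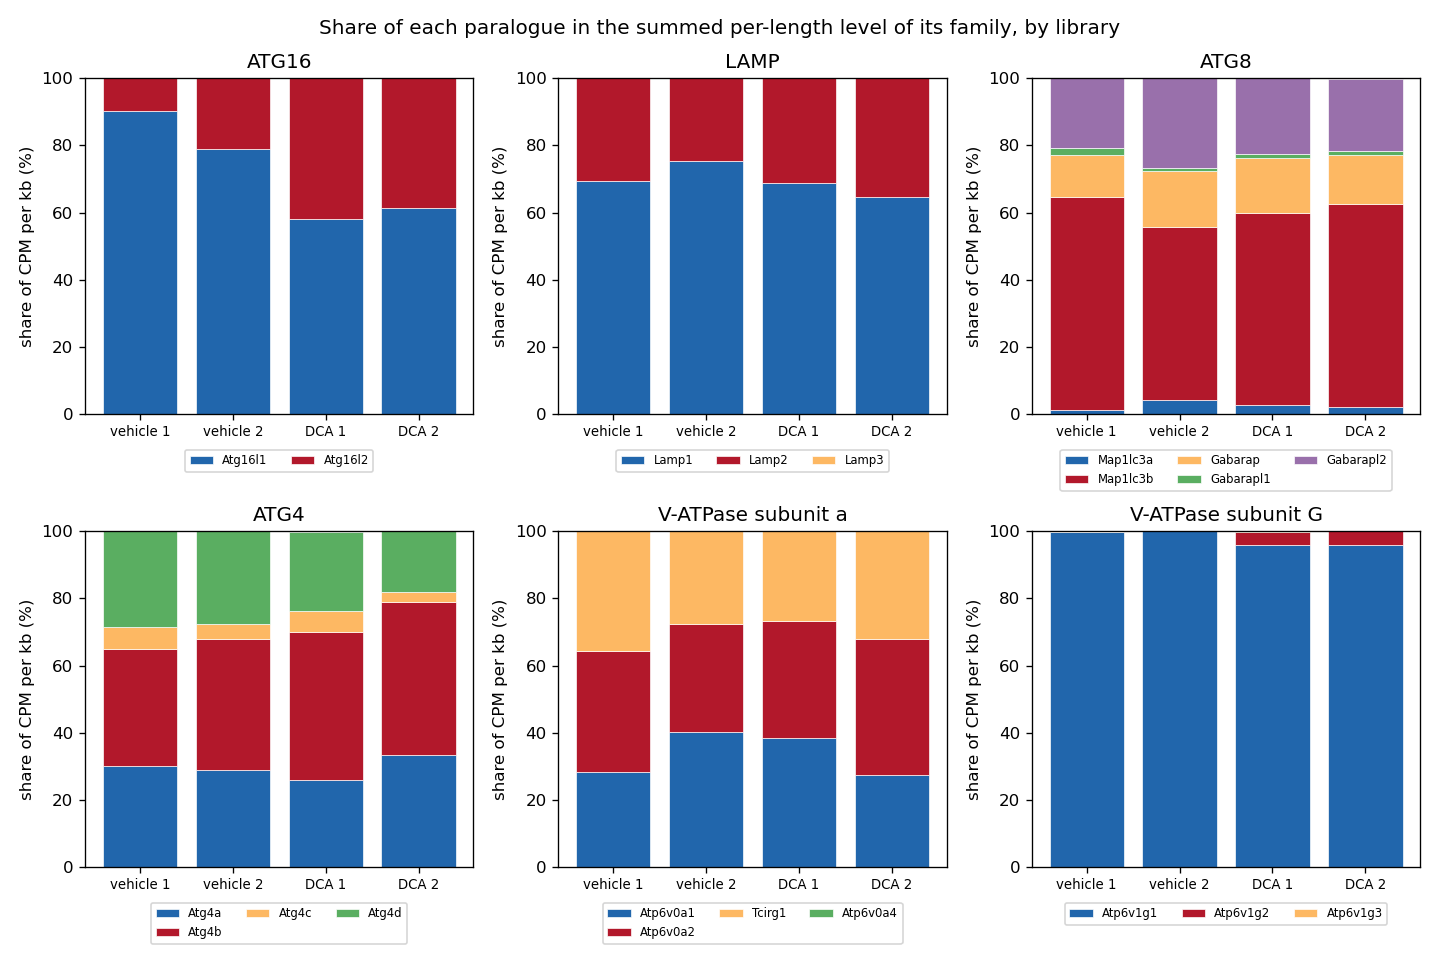
Share of each paralogue in the summed CPM per kb of transcript of its family, one stacked bar per library, for 6 families. Atg16l2 fills 9.68% and 21.2% of the bar with vehicle and 42.0% and 38.7% with DCA, and Atp6v1g2 fills 4.04% and 4.03% with DCA against 0.167% and 0% with vehicle. By the union of exons the Atp6v1g2 shares were 1.17% and 1.16% with DCA against 0.0467% and 0% with vehicle. Atp6v1g2 was below the level for testing.

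The other conjugation genes did not pass the test. Atg7, the E1-like enzyme, was at 28.7 and 30.8 CPM in the vehicle libraries versus 61.6 and 33.3 CPM in the DCA libraries, a log2 fold change of 0.67 (SE 0.43, edgeR unadjusted p = 0.167), with DCA replicate 1 far above the other 3 libraries. Atg3, the E2-like enzyme for ATG8 proteins, was at 294 and 236 CPM in the vehicle libraries versus 325 and 292 CPM in the DCA libraries, with overlapping groups. Atg5 was at 84.8 and 90.7 CPM in the vehicle libraries versus 74.9 and 104 CPM in the DCA libraries, a log2 fold change of 0.026 (SE 0.29). Its conjugation partner Atg12 was at 79.8 and 18.2 CPM in the vehicle libraries versus 34.2 and 21.0 CPM in the DCA libraries, and the vehicle libraries lay on either side of the DCA libraries. Its log2 fold change of -0.83 went to -1.53 (edgeR unadjusted p = 0.00681) without vehicle replicate 2 and to 0.58 (unadjusted p = 0.324) without vehicle replicate 1. In the ATG4 proteases, which process ATG8 proteins, the per-kb share of Atg4b was 34.8% and 39.0% with vehicle and 44.0% and 45.4% with DCA, while that of Atg4d was 28.4% and 27.7% with vehicle and 23.7% and 18.0% with DCA. The treatments were separated in both shares, although Atg4b at a log2 fold change of 0.23 (SE 0.28) and Atg4d at -0.48 (SE 0.33) did not pass the test. Exons of Kri1 on the other strand overlap 23.2% of the exon bases of Atg4d. Shares of Lamp1 and Lamp2 also separated, as did those of Tfeb and Tfe3, but narrowly. The Lamp2 share was 30.5% and 24.7% with vehicle and 31.1% and 35.5% with DCA. That of Tfeb was 33.8% and 17.7% with vehicle and 53.7% and 34.6% with DCA. A rise in the share of a gene lowers that of its relatives, so these separations are not independent. In level, 18.9% of all genes separated upward with DCA and 14.5% downward. All shares of the ULK, WIPI, ATG2, ATG9, and ATG8 families overlapped.

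Among the ATG8 proteins, Map1lc3b, which encodes LC3B, was at 379 and 323 CPM in the vehicle libraries versus 359 and 405 CPM in the DCA libraries. The groups overlapped, and the log2 fold change of 0.12 had an SE of 0.22 and an interval from -0.4 to 0.65. Gabarapl2 was at 125 and 171 CPM in the vehicle libraries versus 143 and 146 CPM in the DCA libraries (log2 fold change -0.035, SE 0.26), and Gabarap at 47.5 and 66.7 CPM in the vehicle libraries versus 65.9 and 62.0 CPM in the DCA libraries (0.16, SE 0.32). For both genes the DCA libraries lay inside the vehicle range. The minor forms Map1lc3a (4.88 and 17.8 CPM with vehicle, 11.6 and 8.47 CPM with DCA) and Gabarapl1 (7.78 and 2.36 CPM with vehicle, 4.24 and 4.05 CPM with DCA) also had both DCA libraries inside the vehicle range. Which ATG8 gene was the largest depended on the length used. Map1lc3b gave between 51.5% and 63.3% of the summed level per kb of transcript, but by the union of exons Gabarapl2, at 39.0% to 44.1%, exceeded it in every library.

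Sqstm1, which encodes the cargo receptor p62, was at 327 and 218 CPM in the vehicle libraries versus 417 and 329 CPM in the DCA libraries. Both DCA libraries were higher, although vehicle replicate 1 and DCA replicate 2 were nearly equal. The log2 fold change was 0.45 (SE 0.28, 95% interval -0.22 to 1.13, edgeR unadjusted p = 0.154), and it was 0.19 without vehicle replicate 2 and 0.75 without vehicle replicate 1 (unadjusted p = 0.037). With the replicate number as a block the value was 0.47 at an unadjusted p of 0.0432. Exons of Mrnip on the other strand overlap 20.5% of its exon bases. Of the 6 genes in the ATG8 and receptor sum, Sqstm1 was the 1 whose own libraries separated. That does not show that Sqstm1 alone set the separation of the sum.

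The study followed the PERK arm of the unfolded protein response, so the 12 autophagy genes listed as dependent on ATF4 or its partner CHOP were also counted. All 12 were tested, 11 of them are members, and 0 had an unadjusted p under 0.05. They comprised 7 genes fitted higher and 5 lower, with a median log2 fold change of 0.043, and the intervals of 6 stayed within a 2-fold difference. The DCA libraries lay above the vehicle libraries for 2 of the 12, Atg7 and Sqstm1, and below both for 0, beside 18.9% and 14.5% of all tested genes.

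The replicate spread set what could be seen. The 2 vehicle libraries were more than 2-fold apart in 13 of the 62 tested members, and the 2 DCA libraries in 3. Over all tested genes these shares were 33.7% and 22.9%. Of the 13, vehicle replicate 2 was the lower one for 10 genes, among them Ulk1, Atg14, Ctsf, Cd63, Atg12, and Atg16l1, and vehicle replicate 1 for Atg9a, Atg2b, and Map1lc3a. Of the 3767 tested genes that far apart with vehicle, replicate 2 was the lower one for 2221 and replicate 1 for 1546. Ctsf, a cysteine cathepsin, was at 8.79 CPM in vehicle replicate 1 and 0 in vehicle replicate 2, beside 3.65 and 5.16 CPM with DCA. None of the 20 members with a mean of at least 100 CPM differed by more than 2-fold between replicates of either treatment.

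**Figure D5:**
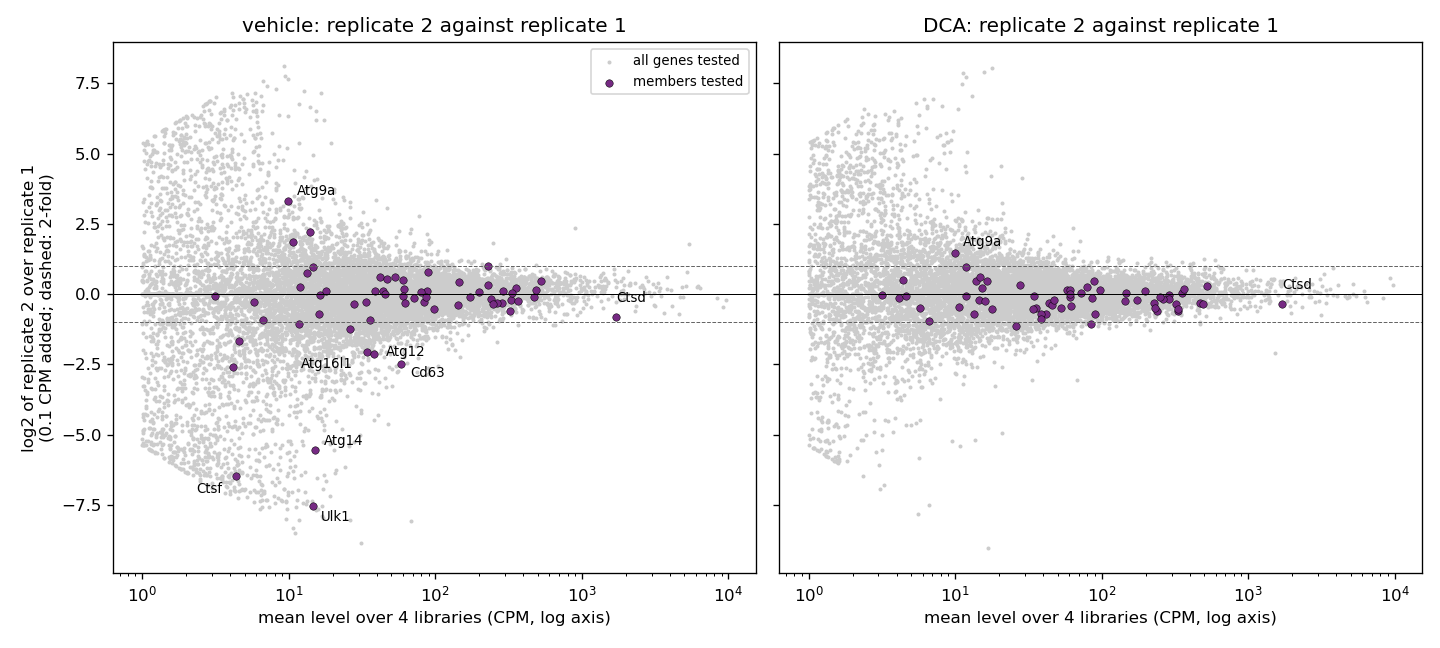
Log2 ratio of replicate 2 to replicate 1 (0.1 CPM added) against the mean level over the 4 libraries on a log axis, for vehicle on the left and DCA on the right. Grey points are all 11179 tested genes and purple points the 62 tested members, of which 13 lie beyond the dashed 2-fold lines with vehicle and 3 with DCA.

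Genes of the same pathways outside the rule were counted from 4 lists, and the counts are to be read beside the 4.28% of all tested genes with an unadjusted p under 0.05. Of 45 other lysosomal genes, all tested, 2 were under it, both fitted lower with DCA, a share near that of all genes, and the median log2 fold change was -0.0017. They were Gaa, acid alpha-glucosidase, at 74.9 and 75.8 CPM in the vehicle libraries versus 37.2 and 33.7 CPM in the DCA libraries (log2 fold change -1.09, SE 0.31, edgeR unadjusted p = 0.011), and Psap, the precursor of the saposins that help hydrolyse sphingolipids, at 48.2 and 38.6 CPM in the vehicle libraries versus 23.8 and 21.7 CPM in the DCA libraries (-0.93, SE 0.38, edgeR unadjusted p = 0.0499). Both genes had both DCA libraries below both vehicle libraries. The most changed in each direction by fitted value were Naglu at 1.14 and Dnase2a at -1.17, neither of which passed an unadjusted p of 0.05.

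Of 27 other autophagy genes, 26 were tested and 1 had an unadjusted p under 0.05. Tax1bp1, a cargo receptor, was at 298 and 449 CPM in the vehicle libraries versus 598 and 598 CPM in the DCA libraries, a log2 fold change of 0.68 (SE 0.26, edgeR unadjusted p = 0.0379), with both DCA libraries higher. Of 10 V-ATPase accessory and assembly genes, 1 was under it. Tmem199, an assembly factor, was at 134 and 111 CPM in the vehicle libraries versus 75.0 and 68.3 CPM in the DCA libraries (-0.78, SE 0.26, edgeR unadjusted p = 0.0249), while the accessory subunit Atp6ap1 and Atp6ap2 overlapped between treatments. Of 18 genes for nutrient sensing at the lysosome, 2 were under it, in opposite directions. Tsc2, an inhibitor of mTORC1 signalling, was at 14.5 and 9.53 CPM in the vehicle libraries versus 35.2 and 26.9 CPM in the DCA libraries (1.37, SE 0.51, edgeR unadjusted p = 0.0361). Rragd, which encodes the RagD GTPase that recruits mTORC1, was counted 136 and 112 times in the vehicle libraries and 0 and 12 times in the DCA libraries (edgeR unadjusted p = 0.0292). In each of these lists 0 genes passed an adjusted p of 0.05, and the adjusted p of every gene named here was 0.998.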

How the data were processed

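RNA was measured in 2 vehicle and 2 DCA libraries. The authors made cDNA with a SMART-Seq HT kit, trimmed reads (Cutadapt 1.9), and used HISAT2 2.2.1 for alignment to mm10, per the labels and methods. The counting tool, annotation, and strand setting are not given in the sources used here. The deposited values are whole-number read counts per gene, not normalized, although the table is named for FPKM. Libraries were assigned by their column names.

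Counts were scaled by TMM, and those averaging 1 CPM or more were tested with edgeR 4.0.16 (quasi-likelihood, two-sided, Benjamini-Hochberg) in R 4.3.3, after the test was checked on simulated counts. SE is the log2 fold change over the root of F. Alternatives were DESeq2 1.42.0, limma 3.58.1 on log2(CPM + 1), other scalings and filters, a replicate block, each library left out, and DCA replicate 2 thinned to 32100082 counts. Gene positions and promoters came from RefSeq (GRCm38.p6), lengths and overlaps from GENCODE on GRCm38, and copies (at least 95% identity over 300 bases) from BLAST+ 2.17.0.

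The members and lists were chosen with earlier results of these data known. The genes named by rule were those with an unadjusted p under 0.05, the highest and the most changed gene of each role, a fixed set of 30 genes, V-ATPase isoforms, and untested members. Members named beyond it were chosen after their values were seen.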

Additional observations from a re-analysis of the deposited data

How the results depend on the processing

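Of the settings with all 4 libraries, each gave 0 members with an adjusted p under 0.05, and the median log2 fold change of the members stayed between 0.031 and 0.11. Over all genes the count at an adjusted p under 0.05 was 0 in the edgeR test, 127 with DESeq2, 36 without a filter on low counts, and 41 without vehicle replicate 1. When 1 library at a time was left out, the number of members with an adjusted p under 0.05 ranged from 0 to 1, the 1 being Ulk1 (adjusted p = 0.0318 in edgeR's test) without vehicle replicate 1, when the remaining vehicle library had 0 counts of it. The number with an unadjusted p under 0.05 was 2 in edgeR's test, 0 of 72 without a filter on low counts, and ranged from 0 to 8 with a library left out. It was 8 (12.9% of members, 13.4% of all genes) without vehicle replicate 1, 5 without vehicle replicate 2, and 0 without either DCA library. Cd68 was among the 8 and Atg16l2 too, and neither was among the 5. Cd68 and Atg16l2 were also not past it with the replicate number as a block. The count was then 1, Sqstm1 (1.61% of members, 4.11% of all genes), and the block changed no call at an adjusted p. Without a filter on low counts, 4.78% of all genes were under an unadjusted p of 0.05, beside 4.28% in the main test. The share over all genes also rose without either vehicle library and fell without either DCA library. Those rises and falls with a library left out were therefore not particular to the members. The replicate numbers do not pair the libraries by any label, and deviations of libraries with the same number had a correlation of 0.0203 across genes. The median with a library left out ran from -0.024 to 0.16. Of 286 values of the 36 genes named by rule with all 4 libraries, 0 reversed a call, and 2 genes near 0, Atg5 and Map1lc3a, changed sign. With 1 library left out, 17 of the 36 changed sign. A lone library left in a group is assumed to vary like the other group. For the 7 tested members under 10 CPM, 0 intervals stayed within a 2-fold difference, so a change of that size was not excluded for any of them. The cause of these shifts was not tested.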
